A study of Mus musculus with 3 samples.

Results

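The 40 genes described here encode the sensors, transcription factors, chaperones and target enzymes of the unfolded protein response, the integrated stress response and the ATF4 response. They were chosen by name from what is known of these pathways, but with earlier results of these data known. All 40 were found by symbol among the 21887 protein-coding genes of the RefSeq table of GRCm38. Binding was mapped by CUT&Tag, in which an antibody tethers a transposase to its target and the nearby DNA is tagged for sequencing, in Pan02, a mouse pancreatic ductal adenocarcinoma line. There were 3 libraries, with 1 library per group: an anti-MYC library of cells with the empty vector, an anti-MYC library of cells that stably express Flag-tagged POH1 (the deubiquitinase of the proteasome lid), and an anti-Flag library of those same POH1-Flag cells. The sources used here name neither the promoter that drives POH1-Flag nor the number of clones. The question posed by the series title is how POH1 relates to MYC, and for these genes it becomes where MYC peaks lay and whether they were higher or lower with POH1-Flag.

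Misfolded protein in the endoplasmic reticulum (ER) is sensed by IRE1 (Ern1), ATF6 and PERK (Eif2ak3). IRE1 splices the mRNA of the transcription factor XBP1, ATF6 is cleaved to a transcription factor, and both induce ER chaperones through the ER stress response element (ERSE). PERK and the kinases HRI, PKR and GCN2 phosphorylate eIF2α, which lowers general translation but favours translation of ATF4. ATF4 then induces amino acid synthesis and uptake genes through a C/EBP-ATF response element (CARE), while MYC with its partner MAX prefers the E-box.

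Promoter sequences of 8 members are shown first because MYC summits lay near these starts and the response elements of the pathway can be read in them. RefSeq promoters of GRCm38.p6, each covering 250 bases before to 50 bases after a start, were held for 35 of the 40 genes. Bases 250 to 1 upstream of the start are printed 5′ to 3′ on the gene's strand for 3 ATF4 targets and then 5 ER chaperone genes. Capitals mark every match on either strand to the E-box CACGTG, its variant CACGCG, the CARE letters TGATGNAA, or the ERSE letters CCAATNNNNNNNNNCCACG. At Calr a CACGCG match and the ERSE match overlap.

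Asns (chr6:7693210-7693459, minus strand): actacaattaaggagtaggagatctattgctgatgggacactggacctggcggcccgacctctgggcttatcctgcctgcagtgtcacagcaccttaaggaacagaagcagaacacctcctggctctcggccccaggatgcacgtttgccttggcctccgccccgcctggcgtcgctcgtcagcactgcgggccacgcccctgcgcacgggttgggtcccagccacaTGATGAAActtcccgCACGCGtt
Chac1 (chr2:119350992-119351241, plus strand): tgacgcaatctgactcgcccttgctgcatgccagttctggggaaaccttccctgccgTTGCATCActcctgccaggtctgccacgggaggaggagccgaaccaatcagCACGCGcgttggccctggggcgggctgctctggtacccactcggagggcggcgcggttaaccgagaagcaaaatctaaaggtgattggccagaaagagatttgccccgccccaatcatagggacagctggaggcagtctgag
Slc7a11 (chr3:50443614-50443863, minus strand): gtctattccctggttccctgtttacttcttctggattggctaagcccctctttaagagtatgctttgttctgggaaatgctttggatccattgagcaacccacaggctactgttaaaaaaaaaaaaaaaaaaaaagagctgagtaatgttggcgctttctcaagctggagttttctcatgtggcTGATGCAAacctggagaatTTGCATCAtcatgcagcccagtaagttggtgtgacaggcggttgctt
Hspa5 (chr2:34771840-34772089, plus strand): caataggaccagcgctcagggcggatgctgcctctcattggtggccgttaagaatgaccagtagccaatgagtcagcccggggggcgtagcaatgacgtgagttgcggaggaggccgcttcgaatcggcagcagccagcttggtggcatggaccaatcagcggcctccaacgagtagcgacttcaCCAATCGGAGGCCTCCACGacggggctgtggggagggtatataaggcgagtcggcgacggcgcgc
Hsp90b1 (chr10:86705445-86705694, minus strand): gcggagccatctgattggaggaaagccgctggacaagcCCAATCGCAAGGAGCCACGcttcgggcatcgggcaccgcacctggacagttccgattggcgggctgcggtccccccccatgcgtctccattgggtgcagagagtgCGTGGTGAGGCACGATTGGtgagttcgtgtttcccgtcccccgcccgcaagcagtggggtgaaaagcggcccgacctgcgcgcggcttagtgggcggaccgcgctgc
Calr (chr8:84846932-84847181, minus strand): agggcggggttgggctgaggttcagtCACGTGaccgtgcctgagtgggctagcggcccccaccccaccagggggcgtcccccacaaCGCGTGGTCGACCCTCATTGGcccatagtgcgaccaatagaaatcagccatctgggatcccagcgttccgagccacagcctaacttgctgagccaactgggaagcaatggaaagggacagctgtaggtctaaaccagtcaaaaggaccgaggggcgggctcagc
Creld2 (chr15:88819396-88819645, plus strand): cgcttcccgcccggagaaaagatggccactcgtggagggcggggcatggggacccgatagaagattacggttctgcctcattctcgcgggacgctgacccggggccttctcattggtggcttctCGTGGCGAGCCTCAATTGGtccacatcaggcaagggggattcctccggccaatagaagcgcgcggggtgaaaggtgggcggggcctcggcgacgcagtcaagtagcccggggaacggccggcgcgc
Dnajb9 (chr12:44210069-44210318, minus strand): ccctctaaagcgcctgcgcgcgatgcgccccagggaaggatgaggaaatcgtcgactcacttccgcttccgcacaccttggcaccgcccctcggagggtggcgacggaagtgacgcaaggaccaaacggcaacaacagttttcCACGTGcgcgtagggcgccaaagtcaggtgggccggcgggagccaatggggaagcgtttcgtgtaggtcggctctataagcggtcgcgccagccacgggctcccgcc

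The ERSE letters stood in 6 of the 9 chaperone and folding genes with a promoter entry (Hspa5, Hsp90b1, Dnajc3, Calr, Creld2 and Pdia6) and in none of the other 26 members with one. Over all 32851 promoters of the table, 0.119% held them, and over the 21263 promoters of protein-coding genes 0.141%. These shares are per promoter, whereas members are counted per gene, with 39 promoters for 35 genes. Hsp90b1 carried 2 matches, which began 212 and 107 bases before the start. The CARE letters stood in 5 of 9 ATF4 targets (Trib3, Asns, Chac1, Slc7a11 and Vldlr), in the transcription factor genes Atf3 and Nupr1 and in Herpud1, against 3.97% of all promoters and 3.6% of coding ones. Slc7a11 had 2 of them, 66 and 47 bases before the start. The E-box CACGTG was found at Nupr1, Dnajb9 and Calr only, 3 of 35 genes, against 7.15% of all promoters and 7.84% of coding ones. Its variant CACGCG was found at 7 of 35 (Atf4, Ddit3, Ppp1r15a, Asns, Psat1, Chac1 and Calr), against 9.27% and 12.1%. A match is a description of the letters, and its absence says nothing about binding outside this window.

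MYC peaks lay at nearly all of these genes in both cell lines. A peak was assigned to a gene when its summit lay within 1 kb of either gene end. In vector cells 36 of the 40 genes had such a peak (90.0%, Wilson 95% interval 76.9 to 96.0%), against 28.2% of all protein-coding genes. In POH1-Flag cells 37 had one (92.5%, 80.1 to 97.4%), against 40% of all genes. Both MYC lists marked 35 of the 40 members and 27.6% of all genes. All 8 transcription factor genes, both eIF2α phosphatase regulators and all 11 chaperone and folding genes had a peak in both lists. The members were chosen with results of these data known, so this share is a description and not independent support.

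Peaks of these genes were taller than most. By the deposited −log10 q, the median member peak stood at percentile 82.9 of the vector list and at percentile 86.4 of the POH1-Flag list. Reads at the summit, solved from the deposited fold enrichment and p-value, ranged from 11 to 61 in vector cells with a median of 23.5, where all gene-end peaks had a median of 15.0. In POH1-Flag cells they ranged from 14 to 63 with a median of 30, against 20. Median widths were 620 and 768 bp, against 465 and 579 bp for all gene-end peaks. Each member entered by its strongest gene-end peak only. The percentiles are over whole lists, with peaks away from gene ends, and the gene-end medians count every such peak, so these comparisons favour the members.

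**Figure D1:**
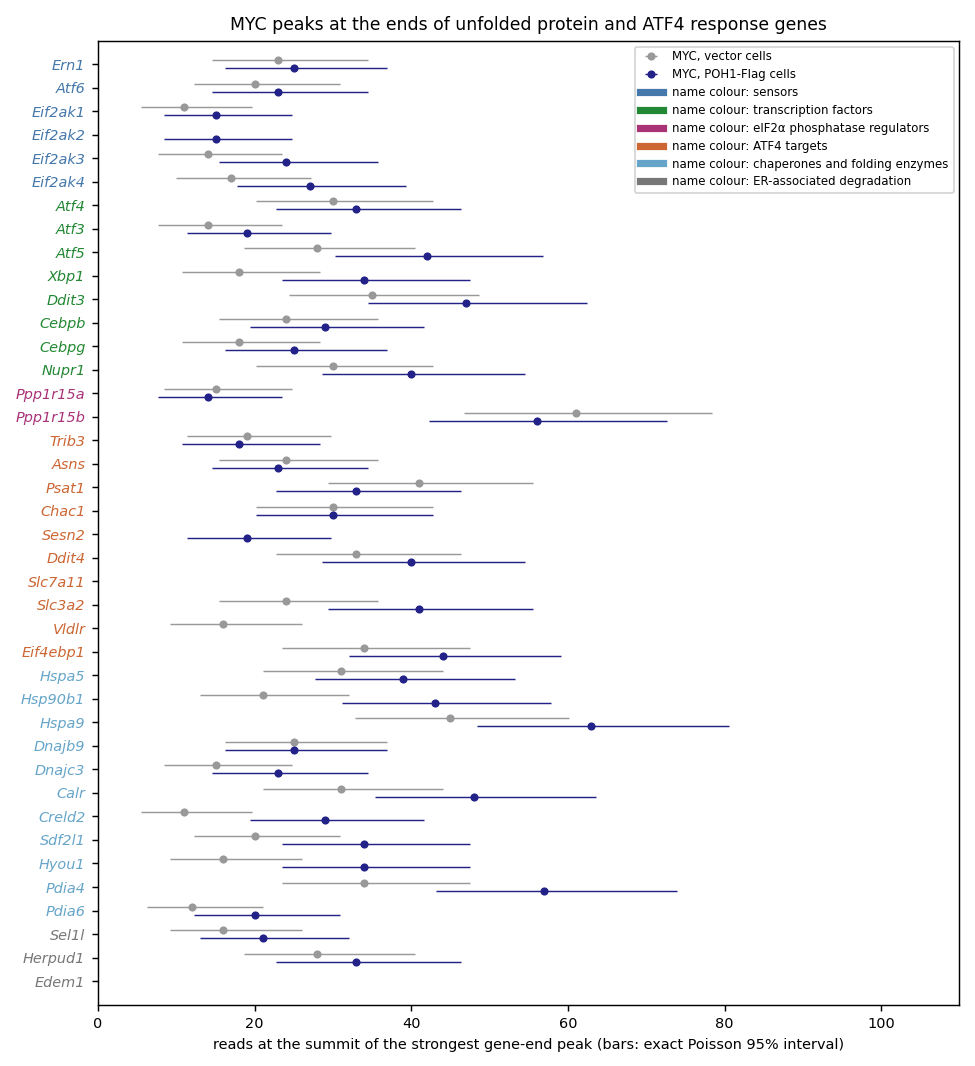
Reads at the summit of the strongest MYC peak within 1 kb of a gene end, for the 40 genes (rows, coloured by role), in vector cells (grey) and POH1-Flag cells (blue); bars are exact Poisson 95% intervals and cover counting error only. A row without a point has no gene-end peak in that list, and Ppp1r15b (61 and 56 reads) and Hspa9 (45 and 63 reads) are the tallest in vector and POH1-Flag cells.

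Summits sat close to the start of transcription. Among members with a promoter entry, the median distance from summit to the nearest RefSeq start was 100 bp in both MYC lists. It was at most 250 bp for 25 of 31 genes in vector cells and for 29 of 32 in POH1-Flag cells. More summits lay upstream than downstream of the start (21 and 10 in vector cells, 21 and 11 in POH1-Flag cells). At Dnajb9 the summits were 172 and 118 bp upstream, beside an E-box that began 107 bases upstream. At Calr both summits fell on the same base, 38 bp upstream, and the E-box began 224 bases upstream.

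**Figure D2:**
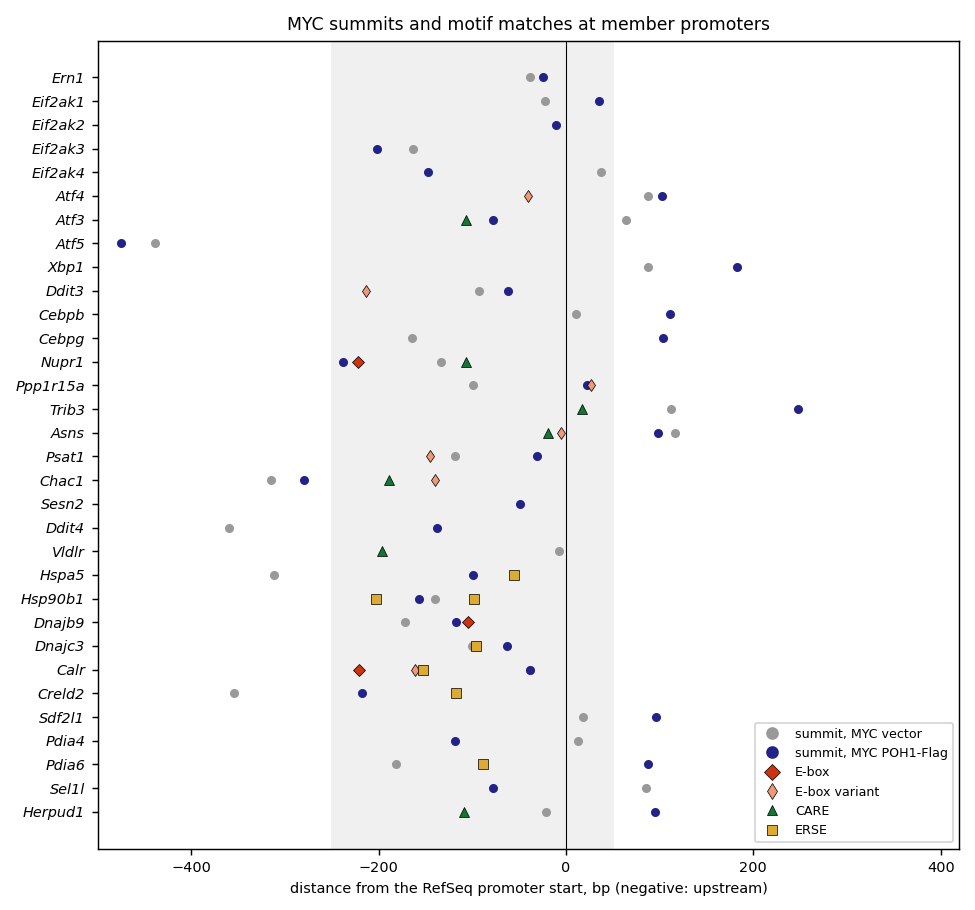
Position of the MYC summit in vector cells (grey circles) and POH1-Flag cells (blue circles) and of motif matches, in bp from the nearest RefSeq promoter start, for members with a summit within 1 kb of it; the shaded band is the 300-base window that was searched. ERSE matches (squares) appear in chaperone rows only, the Calr summits coincide, and most summits lie within 250 bp of the start.

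Some sites belonged to neighbouring genes as well. The Atf5 summits lay 9 and 45 bp from the end of Nup62, a nuclear pore gene, and 561 and 525 bp from that of Atf5. The Creld2 summits were 27 and 110 bp from the end of Alg12, an enzyme of N-glycan assembly, and 355 and 218 bp from that of Creld2. Ddit3 shared its site with Mbd6, Ppp1r15a with Plekha4, Hsp90b1 with Ttc41 and Cebpg with the predicted gene Gm45095. Reads at a shared site cannot be assigned to either gene.

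MYC reads in the 2 cell lines were compared at the 35 members whose gene-end peaks in both lists overlapped by at least 1 bp. Pileups were scaled by each library's genome-wide background, and the ratio of POH1-Flag to vector cells carries an exact conditional Poisson 95% interval. With 1 library per cell line this interval covers counting error within the libraries, and PCR copies, if kept, would make it too narrow. There was no replicate and no test between the cell lines. The reads in the 10 kb around each summit, recovered from the deposited background, were compared in the same way, divided by reads per kb genome-wide. They include the peak itself and any neighbouring peak.

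Over the 35 members the median ratio at the summit was 1.37 (log2 0.46), and over all 6009 genes with a shared gene-end site it was 1.65 (log2 0.72, quartiles 0.50 and 0.94). These sets differ in starting strength, with medians of 24.0 vector reads for members and 15.0 for all genes. Over all genes with 19 to 29 vector reads the median log2 ratio was 0.64. The ratio was below 1 at 5 members, namely Psat1, Trib3, Asns, Ppp1r15a and Ppp1r15b. Among all genes with a shared site 1.63% were below 1, and among those with at least 19 vector reads 1.70% were. Of these 5, Ppp1r15a had 15 vector reads and the others 19 or more. The interval lay above 1 at 6 members (Xbp1, Slc3a2, Hsp90b1, Creld2, Hyou1 and Pdia4), and at 25.8% of all genes. No member's interval lay below 1, as for 0% of all genes. In the 10 kb windows the interval lay above 1 at 22 of 35 members, against 84.0% of all genes with a value. The median ratio there was 1.34 for members and 1.59 for all genes.

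**Figure D3:**
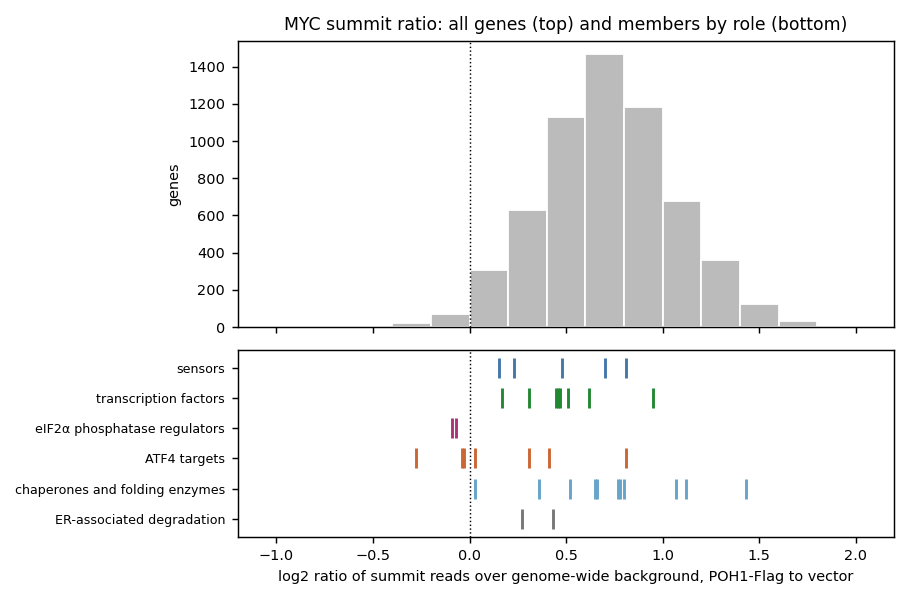
Top: number of genes by log2 ratio of MYC summit reads over genome-wide background, POH1-Flag to vector cells, for all 6009 genes with a shared gene-end site (bins of 0.2). Bottom: the 35 members by role, 1 tick each; the 5 members left of 0 are 3 ATF4 targets and both eIF2α phosphatase regulators.

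The 5 sensor genes with a shared site had 11 to 23 reads in vector cells, with a median of 17, and 15 to 27 in POH1-Flag cells. Ern1, the gene of IRE1, had 23 reads in vector cells and 25 in POH1-Flag cells (ratio 1.11, 0.606 to 2.05). Atf6 had 20 and 23 reads (1.18, 0.618 to 2.26). Eif2ak3, encoding PERK, had 14 and 24 reads (1.75, 0.871 to 3.67). Every one of these intervals held 1, and so did those of the kinases HRI and GCN2. Eif2ak1, encoding the haem-regulated kinase HRI, had 11 and 15 reads (1.40, 0.599 to 3.36). Eif2ak4, encoding the amino acid sensor GCN2, had 17 and 27 reads (1.63, 0.854 to 3.18). Eif2ak2, encoding the double-stranded RNA sensor PKR, had no vector peak and 15 reads in POH1-Flag cells, 11 bp from its start. Such gains occurred at 17.2% of all genes without a vector peak, and at 2 of the 4 members without one (Eif2ak2 and Sesn2). In the 10 kb windows all 5 sensors with a shared site had an interval above 1, with ratios from 1.36 at Ern1 to 1.78 at Eif2ak4. The same held for 84.0% of all genes with a value, whose median ratio was 1.59.

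Among the transcription factors, Atf4 (chromosome 15, 80255184 to 80257545), the effector of the integrated stress response, had 30 and 33 reads at the summit (ratio 1.13, 0.665 to 1.91). Its peaks were 1053 and 1496 bp wide, the second the widest of any member in POH1-Flag cells, and the 10 kb around them held 174 and 320 reads (1.74, 1.44 to 2.10). The summit interval of Atf4 held 1 and also held 1.74, the ratio of the surrounding window. The window's interval lay above 1, as did those of 84.0% of all genes with a value. Xbp1, the target of IRE1 (chromosome 11, 5520641 to 5525993), had 18 and 34 reads (1.93, 1.06 to 3.64) and 105 and 203 reads in 10 kb (1.82, 1.43 to 2.33). It was the only one of the 8 factors whose summit interval lay above 1. Ddit3, encoding the pro-apoptotic factor CHOP, had 35 and 47 reads (1.37, 0.868 to 2.19). Atf5, a factor of mitochondrial stress, had 28 and 42 (1.53, 0.929 to 2.57), and Nupr1, a stress-induced chromatin protein, 30 and 40 (1.36, 0.829 to 2.27). Atf3, which is induced by ATF4, had 14 and 19 reads (1.39, 0.660 to 2.99). The dimer partners Cebpb and Cebpg had 24 and 29 reads (1.24, 0.695 to 2.22) and 18 and 25 reads (1.42, 0.745 to 2.76). In the 10 kb windows the interval held 1 at 3 of the 8 factors: Cebpb with 260 and 275 reads (0.998, 0.839 to 1.19), Atf5 with 219 and 265 (1.14, 0.951 to 1.37) and Cebpg with 87 and 111 (1.20, 0.901 to 1.61). The other 5 lay above 1, and the 8 factors together gave 1.36 (1.27 to 1.46).

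The genes that return eIF2α to its unphosphorylated state both had summit ratios just below 1. Ppp1r15b, the constitutive phosphatase subunit CReP (chromosome 1, 133131166 to 133139800), had the tallest member peak in vector cells, with 61 reads, and 56 in POH1-Flag cells (ratio 0.939, 0.642 to 1.37). Ppp1r15a, the stress-induced subunit GADD34, had 15 and 14 reads (0.955, 0.427 to 2.12). The Ppp1r15b interval lay below the all-gene median of 1.65 (log2 0.72), while that of Ppp1r15a held it. Genes with at least 30 vector reads, as Ppp1r15b had, gave a lower median log2 ratio of 0.53. In 10 kb Ppp1r15b had 220 and 311 reads (1.33, 1.12 to 1.59).

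The 7 ATF4 targets with a shared site had a median ratio of 1.02. Of them 3 lay below 1, against 1.63% of all genes with a shared site. Psat1, an enzyme of serine synthesis (chromosome 19, 15905123 to 15925059), had 41 reads in vector cells and 33 in POH1-Flag cells (ratio 0.824, 0.505 to 1.34). Asns, asparagine synthetase (chromosome 6, 7675165 to 7693209), had 24 and 23 (0.981, 0.529 to 1.81). Trib3, a pseudokinase that restrains ATF4 signalling, had 19 and 18 (0.969, 0.480 to 1.95). Chac1, which degrades glutathione, had 30 reads in each cell line (1.02, 0.596 to 1.76). The CARE letters stood in the promoters of Asns, Trib3 and Chac1 but not in that of Psat1. The interval of Psat1 lay below the all-gene median of 1.65 (log2 0.72), and those of Asns, Trib3 and Chac1 held it. Psat1 had more than 30 vector reads, and all genes with at least 30 gave a lower median log2 ratio of 0.53. Ddit4, an inhibitor of mTORC1, had 33 and 40 reads (1.24, 0.763 to 2.03), and Eif4ebp1, an inhibitor of cap-dependent translation, had 34 and 44 (1.32, 0.827 to 2.14). Slc3a2, the heavy chain of amino acid exchangers, alone of the 7 had an interval above 1, with 24 and 41 reads (1.75, 1.03 to 3.02). These summits lay near a gene end but 9328 and 9386 bp upstream of its RefSeq promoter start. At the taller Slc3a2 peak near that start the interval held 1 (1.45, 0.928 to 2.29).

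The remaining ATF4 targets had a peak in 1 list or none by the gene-end rule. Sesn2, a leucine-binding inhibitor of mTORC1, had 19 reads in POH1-Flag cells only, 49 bp from its start, while vector cells had a peak of 21 reads 3.49 kb outside the gene. The POH1-Flag list is longer, and with that list shortened to the 12175 peaks of the vector list the Sesn2 peak dropped out, as did those of Eif2ak1 and Ppp1r15a, while that of Eif2ak2 remained. Gains then numbered 8.67% of all genes without a vector peak. Vldlr, a lipoprotein receptor, had 16 reads in vector cells only, 8 bp from a RefSeq start, and no MYC peak in or within 20 kb of the gene in POH1-Flag cells. Loss of this kind occurred at 1.99% of all genes with a vector peak. Slc7a11, the cystine transporter, had none near the ends of its annotated span (chromosome 3, 50364936 to 50499087). Its RefSeq promoter start lies inside that span, and there vector cells had 19 reads, 33 bp from the start, and POH1-Flag cells 8 reads, 172 bp from it (ratio 0.431, 0.163 to 1.03). This was the lowest ratio at any member site, and its interval held 1. POH1-Flag cells had 2 further peaks inside Slc7a11, of 19 and 14 reads, 60.8 and 28.3 kb from the nearer gene end. Slc3a2 likewise had a further peak near a promoter start inside the gene, with 36 and 51 reads (1.45, 0.928 to 2.29). Counting peaks within 1 kb of a RefSeq start as well as of a gene end, 38 members had one in vector cells and 39 in POH1-Flag cells. By the start alone 33 and 34 of the 35 members with a promoter entry had one, against 30.4% and 43.1% of 17492 genes.

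The 11 chaperone and folding genes had a median ratio of 1.71, against 1.65 for all genes with a shared site. None lay below 1, and only 1.63% of all those genes did. Creld2, a stress-induced ER protein (chromosome 15, 88819646 to 88826681), had 11 and 29 reads (ratio 2.70, 1.31 to 5.98), the highest of all members. Hyou1, an ER chaperone of the HSP110 type, had 16 and 34 (2.17, 1.17 to 4.22), and Hsp90b1, encoding GRP94, had 21 and 43 (2.10, 1.22 to 3.72). Pdia4, a disulfide isomerase, had 34 and 57 (1.72, 1.10 to 2.71). These 4 intervals of the 11 lay above 1, as did 25.8% of those of all genes with a shared site. Sdf2l1, a partner of BiP, had 20 and 34 reads (1.74, 0.973 to 3.19), Calr, the lectin chaperone calreticulin, had 31 and 48 (1.58, 0.988 to 2.57), and Pdia6 had 12 and 20 (1.71, 0.794 to 3.83). Dnajc3, the BiP co-chaperone p58IPK, had 15 and 23 reads (1.57, 0.784 to 3.23). Hspa9, the mitochondrial chaperone mortalin, had the tallest peak in POH1-Flag cells, 45 and 63 reads (1.43, 0.962 to 2.15).

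Within the chaperones the size of the ratio varied. Hspa5, encoding BiP, the chief ER chaperone (chromosome 2, 34772090 to 34776529), had 31 and 39 reads (1.29, 0.783 to 2.13). Dnajb9, the co-chaperone ERdj4, had 25 reads in each (1.02, 0.564 to 1.86). In the 10 kb windows ratios were 2.15 at Hyou1 (1.65 to 2.82), 2.07 at Sdf2l1 (1.64 to 2.63) and 1.95 at Creld2 (1.47 to 2.60), and 1.20 at Hspa9 (1.01 to 1.43) and 1.17 at Dnajb9 (0.898 to 1.54). The interval at Hspa9 did not overlap those of the first 3 of these genes. Of the 6 genes with ERSE letters, summit ratios ran from 1.29 at Hspa5 to 2.70 at Creld2.

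Of the 3 genes of ER-associated degradation, Sel1l, a scaffold of the ubiquitin ligase HRD1, had 16 and 21 reads (1.34, 0.668 to 2.75), and Herpud1 had 28 and 33 (1.21, 0.707 to 2.07). Edem1, a lectin-like factor for misfolded glycoproteins, had no peak near either gene end. At its RefSeq promoter start, inside the annotated span, it had 15 and 31 reads (ratio 2.11, 1.11 to 4.22).

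The roles were then set side by side by the summed reads of their shared sites. The 7 ATF4 targets had 205 reads in vector cells and 229 in POH1-Flag cells, a ratio of 1.14 (0.943 to 1.39). The 11 chaperone and folding genes had 261 and 415, a ratio of 1.63 (1.39 to 1.91), close to the 1.64 (1.62 to 1.65) of all genes with a shared site. The upper end for ATF4 targets, 1.39, met the lower end for chaperones. In 10 kb windows the intervals were apart, at 1.14 (1.06 to 1.23) for ATF4 targets and 1.56 (1.45 to 1.67) for chaperones, with 1.58 (1.57 to 1.58) for all genes. Intervals of summed reads cover counting error and not the spread between genes. Ratios of single genes in 10 kb overlapped, from 0.861 to 1.55 for ATF4 targets and from 1.17 to 2.15 for chaperones. The transcription factors stood between these roles by summed reads, with 1.40 (1.16 to 1.69) at the summit. Sensors gave 1.37 (1.03 to 1.84) at the summit and 1.51 (1.34 to 1.71) in 10 kb. The phosphatase regulators gave 0.942 (0.671 to 1.32) at the summit but 1.3 (1.13 to 1.5) in 10 kb. The 2 degradation genes gave 1.26 (0.828 to 1.91) at the summit and 1.10 (0.932 to 1.31) in 10 kb, where their ratio was no higher than that of the ATF4 targets. In 10 kb the ratios of Ern1, Atf5, Ddit3, Cebpb, Cebpg, both phosphatase regulators and both degradation genes also lay below the lower quartile of all genes, 1.42. The difference between roles was described by these intervals and was not tested, since genes are not replicates and the cell lines have 1 library each.

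**Figure D4:**
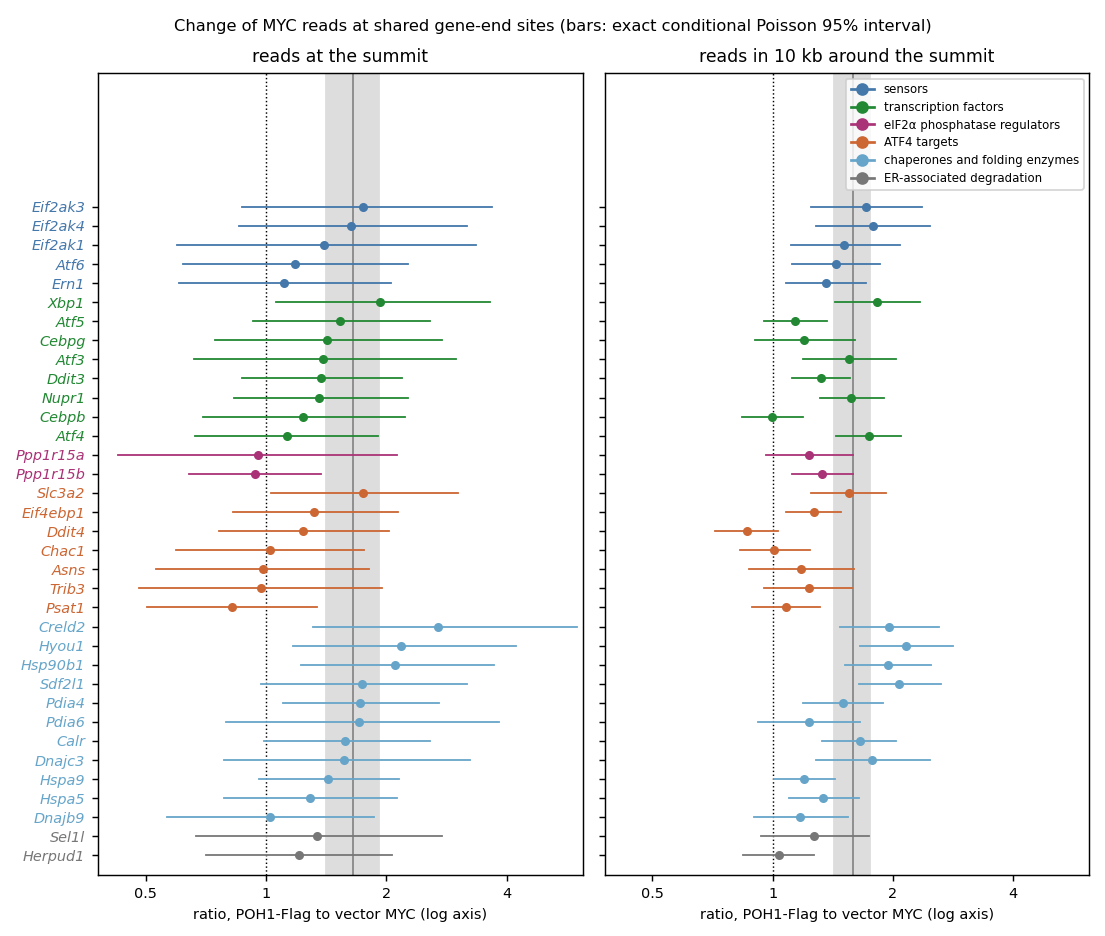
Ratio of MYC reads in POH1-Flag to vector cells (log axis) for the 35 members with a shared gene-end site, at the summit (left) and in 10 kb around it (right); bars are exact conditional Poisson 95% intervals, the grey line and band are the median and quartiles of all genes with a value, and the dotted line is 1. In the right panel 6 of the 7 ATF4 targets lie left of the grey band (Slc3a2 is within it), as do 4 chaperone genes (Hspa5, Hspa9, Dnajb9 and Pdia6), while 5 chaperone genes (Hyou1, Sdf2l1, Creld2, Hsp90b1 and Dnajc3), Xbp1 and Eif2ak4 lie right of it.

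The ratio was lower at sites with more vector reads. Vector reads are also the denominator of the ratio, so counting error builds some of this trend in. Vector reads had a median of 30 at the 7 ATF4 sites and 21.0 at the 11 chaperone sites. Over all genes the median log2 ratio was 0.84 at sites of up to 12 vector reads, 0.64 at sites of 19 to 29 and 0.53 at sites of at least 30. The median log2 ratio of the ATF4 targets was 0.03. When each pileup was divided by its own local background, which counts the reads of the surrounding 10 kb and so includes the site, the median log2 ratios were 0.01 for ATF4 targets, 0.02 for chaperones and 0.06 for all genes, and −0.44 for the phosphatase regulators. The part of the starting strength in the difference was not tested.

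Flag peaks were absent from the ends of these genes. No member had a Flag summit within 1 kb of an end (0 of 40, Wilson upper limit 8.76%), and 0.196% of all genes did. The nearest Flag summits lay 17.1 kb from Cebpb (10 reads) and 23.2 kb from Pdia4 (19 reads), and no other member had one within 50 kb. With so few genes marked, this count does not set the members apart.

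A further 60 genes of the same pathways, not among the members, were examined in the same way. In vector cells 46 had a gene-end MYC peak and in POH1-Flag cells 54, with no Flag peak at any. The median log2 ratio of these further genes was 0.74 over the 45 with a shared site, against 0.72 for all genes. Hspd1 and Hspe1 both count among the 45, with the same site. Of the 24 folding and degradation genes of the ER, the 20 with a shared site gave a summed ratio of 1.78 (1.57 to 2.02). Among them was Manf, which encodes an ER stress-induced neurotrophic factor, at 33 and 58 reads (1.80, 1.15 to 2.85). Of the 15 amino acid and ATF4-linked genes, the 11 with a shared site gave 1.39 (1.18 to 1.64). Gpt2, an alanine aminotransferase, was the only one of the 45 with a ratio below 1 (40 and 34 reads, 0.870, 0.534 to 1.41). Eif2s1, encoding eIF2α itself, had 31 and 50 reads (1.65, 1.03 to 2.67). The mitochondrial chaperonin genes Hspd1 and Hspe1 share a site of 38 and 53 reads (1.43, 0.923 to 2.22). The intervals of the folding and the amino acid genes overlapped, from 1.57 to 1.64.

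Peak positions say nothing of the level of the mRNAs, which were not measured in these libraries. MYC peaks at ductal markers were found at 1 of 8 genes in vector cells (Sox9) and 2 of 8 in POH1-Flag cells (Sox9 and Krt7), and at 0 of 8 acinar markers. Whether the cells express these markers cannot be read from a MYC peak list. The background gave a relative depth of 1.06 for the POH1-Flag MYC library and 1.05 for the Flag library against the vector MYC library.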

How the data were processed

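CUT&Tag peak lists of 3 libraries of Pan02 cells, 1 per group by sample title, were used. A commercial CUT&Tag kit was used, per the labels' protocols. MACS2 2.2.7.1, BWA 0.7.17-r1188, Trim Galore 0.6.6, FastQC 0.11.9 and GRCm38/mm10 are listed in the submitters' processing notes. The sources used here state no peak-calling parameters, control library or handling of duplicates. The deposited lists, 1 per library, follow the narrowPeak layout and held 2936 (Flag), 12175 (vector MYC) and 22647 (POH1-Flag MYC) peaks. Fold enrichment is the authors' linear ratio, −log10 p and −log10 q are the authors' values at the summit, and the deposited score is derived from q. The deposited summit offsets are in bp. The lowest −log10 q was 1.36, 1.30 and 1.30.

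Summit pileups and their local background were computed from the deposited fold, with the pseudocount of 1 that MACS2 adds to both, and the deposited Poisson p-value, and gave whole reads for 100% of peaks (tolerance 0.01 of a read step). Backgrounds above the lowest were whole numbers of reads in 10 kb (same tolerance) when the fragment length was set to the narrowest peak (233, 219 and 202 bp). The lowest background (0.946, 0.845 and 0.826) was taken as the genome-wide level. Depth in total reads is not given, and median pileups of 15.0, 14.0 and 15.0 reads leave wide counting intervals.

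A gene's shared site was the overlapping pair of peaks with the most reads. Gene spans came from the RefSeq table and strands from the promoter table, both GRCm38.p6, and the promoter table holds 35 of the 40 members. All 40 members may be named. Full values were required for members without a peak or with a peak in 1 MYC list, the 2 of each role with the largest −log10 q per MYC list, those whose interval leaves out 1, and the highest and lowest ratio. Other genes are named where they share a member's peak, or as the 2 of the further list with the largest −log10 q per MYC list. Members, lists and rules were chosen with earlier results of these data known. The promoter-start rule, the 10 kb reads, the limit of 19 vector reads (the lowest ATF4 target site), the subgroups of further genes and the choice of printed promoters were made after seeing the data. The alternatives were stricter q and fold limits, other windows and overlap, an equal list length, lists without Flag sites and other scalings. The steps were tested on simulated data (Python 3.11.15, scipy 1.17.1).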

Additional observations from a re-analysis of the deposited data

How the results depend on the processing

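Of the 36 members with a gene-end MYC peak in vector cells, 19 had one at a −log10 q of at least 10. The other alternatives gave 28 to 38 members in vector cells, 27 to 39 in POH1-Flag cells and 0 for Flag. With the shortened POH1-Flag list it was 34 members, against 31.6% of all genes. For the other alternatives in this paragraph the share of all genes is not given. Those counts show how the members' number moved and do not set the members against other genes. The median log2 ratio of 0.46 over members ran from 0.34 to 0.46 under other site choices and read-based scalings, and fell to 0.01 with pileups divided by their local background. With that scaling the ratio of summed reads was 1.04 for chaperones and 1 for ATF4 targets, against 1.5 to 1.63 and 1.05 to 1.14 under the other settings. The ATF4 value was 1.07 with sites at promoter starts counted, which adds Slc7a11 and takes the taller Slc3a2 site. The local background counts reads of the 10 kb that hold the site, and the cause was not tested. With it 17 of 35 members lay below 1, against 5 without scaling and 7 by read depth. Over all genes the median log2 ratio was 0.06 with the local background. The share of all genes below 1 under that scaling is not given here, so the 17 do not set the members apart. The ratio at Atf4 was 0.648 with the local background, and the median for ATF4 targets was −0.08 by read depth. No paired analysis was possible because each group has 1 library. Leaving out a library was not possible for the same reason.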
